A study of Homo sapiens with 4 samples.

Results

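The 10 genes described here encode some of the core membrane and cytoplasmic proteins of planar cell polarity, some of the receptors that bind WNT ligands, and a single ligand: RYK, PRICKLE1, PRICKLE2, VANGL1, VANGL2, FZD3, FZD6, LRP5, LRP6 and WNT10A. They were found by symbol, all 10 of 10, among the 23368 entries of a deposited table of gene counts. RNA was sequenced from 4 established human cell lines of acute lymphoblastic leukemia of B-cell precursors, 1 library for each line. In RS4;11 and in SEM the translocation t(4;11) rearranges MLL (KMT2A), fusing it to AFF1, and they are called the MLL-rearranged lines below. NALM6 and REH lack it and are called the control lines. All 4 lines grew in RPMI medium with fetal bovine serum and received no drug, as far as the labels say. Each group held 2 lines (n = 2), each line derives from the leukemia of a different patient, and a difference between the groups includes every other difference between those leukemias. The genes were selected on their counts in these same lines, so their levels and group differences are given as a description, with no test.

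WNT proteins are secreted, lipid-modified signals. A Frizzled receptor and the co-receptor LRP5 or LRP6 bind them together, which stabilises beta-catenin and lets it act with TCF and LEF factors in the nucleus. In the branch called planar cell polarity, known mainly from epithelia and from Drosophila, Frizzled and the Vangl and Prickle proteins take opposite sides of a cell and orient it within a sheet, without beta-catenin. RYK is a WNT receptor with a kinase-like domain that lacks catalytic activity.

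The promoters of 4 of these genes are shown because the 2 lines of one group lay on one side of the 2 lines of the other, RYK and VANGL2 being low in the MLL-rearranged lines and PRICKLE2 and VANGL1 near 0 in the control lines. VANGL1 was also near 0 in SEM, where its interval overlapped that of REH. Each runs 5′ to 3′ along the gene's strand, from 250 bases before to 50 bases after a RefSeq start (GRCh38.p14), and capitals mark CG dinucleotides.
RYK, chr3:134250810-134251109, minus strand: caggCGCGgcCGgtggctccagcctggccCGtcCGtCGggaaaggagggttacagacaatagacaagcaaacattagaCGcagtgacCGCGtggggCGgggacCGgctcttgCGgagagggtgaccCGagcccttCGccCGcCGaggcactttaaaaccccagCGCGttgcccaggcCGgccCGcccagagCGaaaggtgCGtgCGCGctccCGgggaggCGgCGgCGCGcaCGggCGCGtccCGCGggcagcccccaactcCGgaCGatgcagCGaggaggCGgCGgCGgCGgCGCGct
VANGL2, chr1:160400314-160400613, plus strand: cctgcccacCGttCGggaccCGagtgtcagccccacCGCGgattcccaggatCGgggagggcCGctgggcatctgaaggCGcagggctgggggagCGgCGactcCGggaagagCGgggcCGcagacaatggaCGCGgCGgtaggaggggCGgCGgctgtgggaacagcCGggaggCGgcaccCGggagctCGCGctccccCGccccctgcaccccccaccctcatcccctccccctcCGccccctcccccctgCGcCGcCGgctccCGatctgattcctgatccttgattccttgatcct
VANGL1, chr1:115641720-115642019, plus strand: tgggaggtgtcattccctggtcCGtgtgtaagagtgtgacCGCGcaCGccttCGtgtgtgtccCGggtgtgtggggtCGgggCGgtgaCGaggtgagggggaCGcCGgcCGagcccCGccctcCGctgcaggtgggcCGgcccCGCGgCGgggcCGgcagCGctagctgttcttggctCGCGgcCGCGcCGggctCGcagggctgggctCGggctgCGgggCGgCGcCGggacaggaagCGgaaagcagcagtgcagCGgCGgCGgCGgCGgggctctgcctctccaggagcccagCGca
PRICKLE2, chr3:64225417-64225716, minus strand: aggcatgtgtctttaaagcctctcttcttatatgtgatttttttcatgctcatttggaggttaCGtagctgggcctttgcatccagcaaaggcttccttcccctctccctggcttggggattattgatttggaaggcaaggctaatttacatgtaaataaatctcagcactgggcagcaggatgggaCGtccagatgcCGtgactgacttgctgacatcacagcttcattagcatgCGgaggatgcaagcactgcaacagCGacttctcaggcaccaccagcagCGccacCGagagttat
PRICKLE2 at another start, chr3:64268124-64268423, minus strand: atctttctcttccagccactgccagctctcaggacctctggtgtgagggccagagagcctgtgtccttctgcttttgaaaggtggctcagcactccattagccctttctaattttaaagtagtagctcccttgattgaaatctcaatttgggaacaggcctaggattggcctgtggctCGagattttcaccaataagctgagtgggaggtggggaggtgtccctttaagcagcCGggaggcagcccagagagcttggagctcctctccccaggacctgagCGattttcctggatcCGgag
The RYK window held 43 CG dinucleotides and the VANGL2 window 29, against a median of 14 over the 35116 promoters of this table. VANGL1 had 38 at the start shown and 32 at its other listed start. High CG counts were not particular to these genes: of members whose groups overlapped, LRP5 had 52, PRICKLE1 33 and WNT10A 30. PRICKLE2 stood apart from these, with 7 CG at one start and 4 at the other, and 49.0% and 53.3% of its bases were G or C, against 73.0% for RYK. At least as many CG as in the RYK window were present in 4.98% of all promoters. The letters bound by TCF and LEF factors (CTTTGAA or CTTTGAT, and likewise CTTTGTA or CTTTGTT, on both strands, with no overlap between them) were in none of the 9 windows that the table holds for 7 of the genes (RYK, PRICKLE1, PRICKLE2, VANGL1, VANGL2, LRP5 and WNT10A), and in 13.8% of all promoters. Which start each line uses cannot be read from gene counts.

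Summed gene counts were 51872617 in RS4;11, 33620574 in SEM, 44849858 in NALM6 and 84212986 in REH. Levels are CPM, the counts of a library scaled to a sum of 1000000, and a floor of 3 counts corresponded to between 0.0356 CPM (REH) and 0.0892 CPM (SEM). Intervals are exact 95% Poisson intervals. The labels name no molecular identifiers that would separate copies of one molecule, so these intervals hold counting error and nothing else. The lines matched their label: summed over 8 B-precursor markers they had 1679 CPM (RS4;11) and 1184 CPM (SEM), against 1998 CPM (NALM6) and 2129 CPM (REH), with all 8 at 1 CPM or more except BLNK (SEM, 0.178 CPM) and VPREB1 (REH, 0.226 CPM). Of markers of other cells, the 7 of T and NK cells summed to 26.1 and 11.3 CPM in the MLL-rearranged lines, against 0.981 and 1.70 CPM in the control lines, nearly all of it NKG7, while CD3D, CD3E and CD3G were at 0 counts in every line. The 6 myeloid markers summed to 13.7 and 37.6 CPM, against 8.56 and 39.8 CPM. The 8 stromal and epithelial markers summed to 43.5 and 104 CPM, against 7.25 and 46.0 CPM, led in each line by PDGFRB, a receptor for platelet-derived growth factor, with COL1A2 and DCN at 0. The 4 endothelial markers summed to 2.10 and 15.9 CPM, against 0.156 and 1.29 CPM. The part of these markers in the levels below was not tested. In bulk RNA, fewer cells that express a gene and less RNA per cell cannot be told apart.

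**Figure D1:**
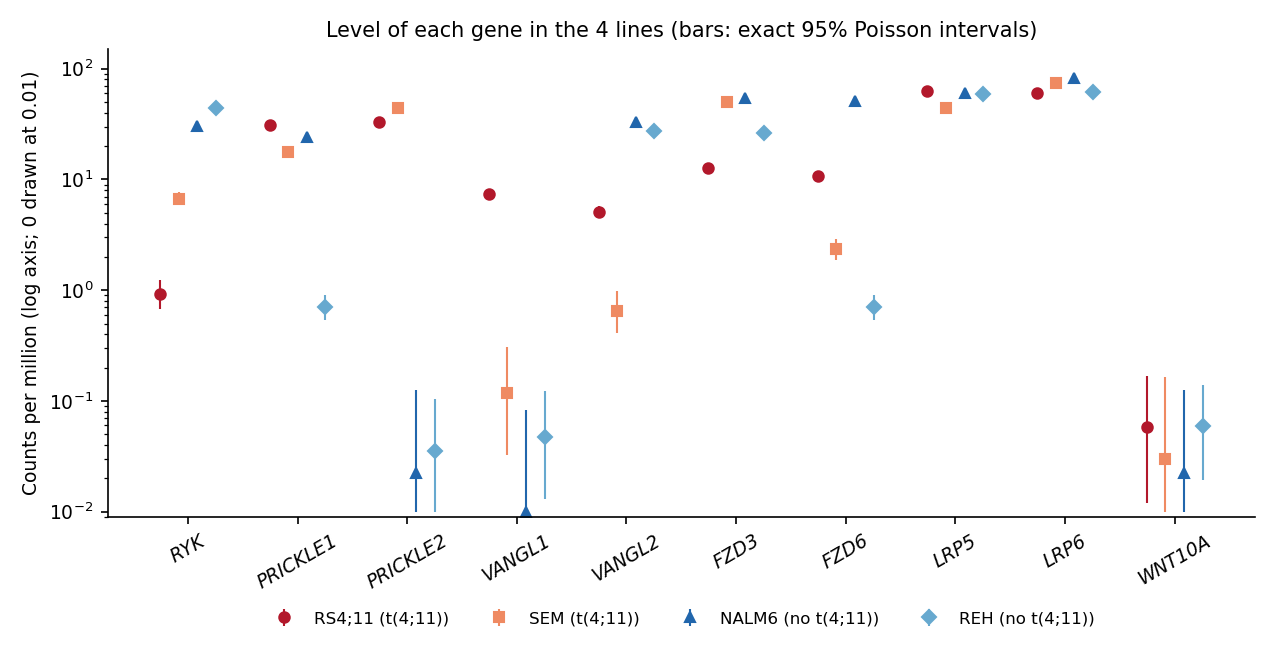
CPM of each gene in the 4 lines on a log axis, with exact 95% Poisson intervals as bars. PRICKLE2 stands at 32.8 and 44.2 CPM in the MLL-rearranged lines and near 0 in both controls, RYK and VANGL2 are lower in both MLL-rearranged lines, and LRP5 and LRP6 lie between 44.5 and 82.5 CPM in all 4 lines.

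The ligand WNT10A, on chromosome 2 (219745255 to 219758651, hg19), was barely counted. It had 3 counts in RS4;11 and 1 in SEM, against 1 in NALM6 and 5 in REH, which is at or near the floor in every line, so no fold is given. Its intervals overlapped between all neighbours in the order of the lines. The highest upper bound of these intervals was 0.169 CPM (RS4;11), and a difference between the lines was not detectable at these counts.

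The co-receptors LRP5 and LRP6, related single-pass proteins of the LDL receptor family, were counted in every line at similar levels. LRP6 had 60.2 CPM (RS4;11) and 74.1 CPM (SEM), against 82.5 CPM (NALM6) and 62.1 CPM (REH). LRP5 had 62.3 CPM (RS4;11) and 44.5 CPM (SEM), against 60.9 CPM (NALM6) and 59.1 CPM (REH). For both genes the groups overlapped. The log2 differences (edgeR, MLL-rearranged over control) were -0.0048 for LRP6 (SE 0.24) and -0.06 for LRP5 (SE 0.26), and each changed sign when a line was left out (between -0.20 and 0.20 for LRP6, and between -0.34 and 0.17 for LRP5). LRP5 has a partial copy on chromosome 22, LRP5L, which RefSeq annotates as a transcribed pseudogene. LRP5L had 811 and 287 counts in RS4;11 and SEM, against 1765 and 2330 in NALM6 and REH. How reads that match both were counted was not given in the sources used here, so the LRP5 levels are uncertain. LRP5 lies on chromosome 11 (68080108 to 68216743) and LRP6 on chromosome 12 (12268961 to 12419811), in hg19 as for all loci below.

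The Frizzled receptors FZD3 and FZD6, both linked to planar polarity in mice, differed more between the lines of a group than between the groups. FZD3 had 12.6 CPM (RS4;11) and 50.1 CPM (SEM), against 54.8 CPM (NALM6) and 26.3 CPM (REH). SEM stood close to NALM6, and RS4;11 was lowest. FZD6 had 10.8 CPM (RS4;11) and 2.35 CPM (SEM), against 50.7 CPM (NALM6) and 0.701 CPM (REH). The 2 control lines were thus the highest and the lowest of the 4 for FZD6, 72.3-fold apart, and its group difference of -1.85 (log2, SE 2.05) became 3.32 without NALM6. That of FZD3 was -0.28 (log2, SE 0.81) and became 0.39 without RS4;11 and 0.34 without NALM6. Both genes lie on chromosome 8, FZD3 at 28351722 to 28431785 and FZD6 at 104310661 to 104345094 (hg19).

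RYK was low in both MLL-rearranged lines. It had 0.925 CPM (RS4;11, 48 counts, interval 0.682 to 1.23 CPM) and 6.72 CPM (SEM, 226 counts), against 30.5 CPM (NALM6) and 44.5 CPM (REH). The groups did not overlap, and all 3 neighbouring pairs in the order of the lines had separate intervals. SEM was 7.26-fold above RS4;11, while REH was 1.46-fold above NALM6, so the low group was the more uneven one. The log2 difference was -3.21 (SE 1.11), with -2.39 without RS4;11 and -5.22 without SEM. RYK lies on chromosome 3 (133875978 to 133969586, hg19). A pseudogene, RYKP1, is annotated by RefSeq on chromosome 17, and no value for it was used here.

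VANGL1 and VANGL2 encode related 4-pass membrane proteins that recruit Prickle proteins to the cell membrane. VANGL2 had 5.05 CPM (RS4;11) and 0.654 CPM (SEM, 22 counts), against 32.9 CPM (NALM6) and 27.6 CPM (REH). Both MLL-rearranged lines were below both controls, and SEM was the lowest, 7.72-fold under RS4;11. The log2 difference was -3.29 (SE 1.15), with -5.44 without RS4;11 and -2.46 without SEM. VANGL2 lies on chromosome 1 (160370364 to 160398468, hg19).

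VANGL1, on the same chromosome (116184574 to 116240845, hg19), was well above the floor in RS4;11 alone. It had 385 counts in RS4;11 (7.42 CPM) and 4 counts in SEM (0.119 CPM, interval 0.0324 to 0.305), against 0 counts in NALM6 and 4 counts in REH (0.0475 CPM, interval 0.0129 to 0.122). RS4;11 was 62.4-fold above SEM, with a counting interval from 24.2 to 230.1. By rank both MLL-rearranged lines were above both controls, but SEM exceeded the summed controls by 3.84-fold with an interval from 0.715 to 20.6, which includes no difference. With enough counts in a single line only, VANGL1 did not pass the filter on low counts and has no edgeR value in the all-gene fit. Without that filter its fitted log2 difference was 7.17 with an SE of 2.76.

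The Prickle proteins are cytoplasmic LIM-domain partners of Vangl. PRICKLE2 had 1702 counts in RS4;11 (32.8 CPM) and 1485 in SEM (44.2 CPM), against 1 count in NALM6 and 3 in REH. Summed over the lines of each group, this was a ratio of 1203 with a counting interval from 469 to 4417. Within its high group SEM was 1.35-fold above RS4;11. Its edgeR log2 difference was 10.31 (SE 0.55) and lay between 10.08 and 10.66 with a line left out. PRICKLE2 lies on chromosome 3, in a locus whose span is shared by overlapping genes (64053640 to 64211131, hg19). The antisense gene PRICKLE2-AS1, listed in the table by its RefSeq gene number within the same locus, had 35 and 11 counts in RS4;11 and SEM, against 0 and 0 in NALM6 and REH. The library kit named in the labels does not mark strand, so reads of the gene and of its antisense partner cannot be told apart where they overlap.

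PRICKLE1 did not follow PRICKLE2. It had 30.7 CPM (RS4;11) and 17.7 CPM (SEM), against 24.1 CPM (NALM6) and 0.701 CPM (REH, 59 counts). PRICKLE1 lies on chromosome 12 (42852140 to 42983572). NALM6 lay between the MLL-rearranged lines, and REH stood 34.3-fold under NALM6. The log2 difference of 1.08 (SE 1.63) became 5.20 without NALM6 and 0.11 without REH. REH thus had fewer than 1 CPM of both Prickle genes together with 27.6 CPM of VANGL2, and SEM had fewer than 1 CPM of both Vangl genes together with 17.7 and 44.2 CPM of PRICKLE1 and PRICKLE2. RS4;11 was the only line with at least 5 CPM of all 4 of these genes, a limit set after the values were seen.

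**Figure D2:**
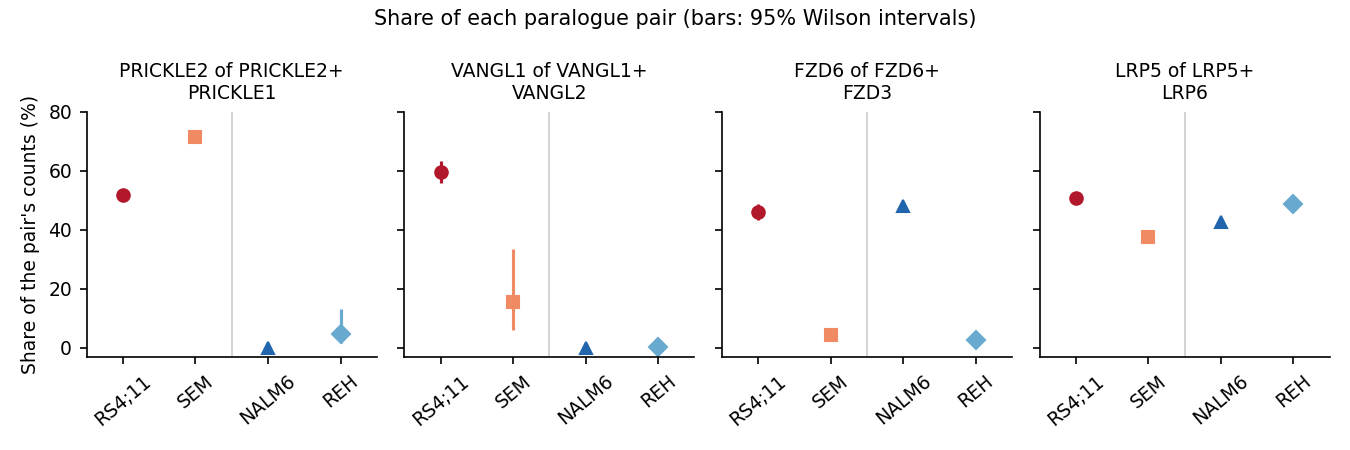
Share of each pair's counts taken by the first gene, by line, in percent, with 95% Wilson intervals as bars and a grey rule between MLL-rearranged lines (left) and control lines (right). The PRICKLE2 share is above 50% in both MLL-rearranged lines and under 5% in both controls, while the FZD6 share splits RS4;11 and NALM6 from SEM and REH.

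Shares within a pair of related genes set the lines side by side without library scaling, although the 2 genes differ in length and a share is not a ratio of molecules. PRICKLE2 took 51.6% of the PRICKLE1 and PRICKLE2 counts in RS4;11 and 71.4% in SEM, against 0.0926% in NALM6 and 4.84% in REH (95% Wilson interval 1.66% to 13.3% for REH). VANGL1 took 59.5% of the Vangl counts in RS4;11 and 15.4% in SEM (4 of 26 counts, interval 6.15% to 33.5%), against 0 of 1475 in NALM6, which allows up to 0.203%, and 0.172% in REH. In SEM the pair rested on so few counts that its share says little about a level. FZD6 took 46.0% of the FZD3 and FZD6 counts in RS4;11 and 4.48% in SEM, against 48.0% in NALM6 and 2.60% in REH. That split ran across the groups: RS4;11 and NALM6 were above 45%, SEM and REH under 5%, and the intervals of RS4;11 (43.2% to 48.8%) and NALM6 (46.6% to 49.4%) overlapped. LRP5 took 50.9% in RS4;11 and 37.5% in SEM, against 42.5% in NALM6 and 48.8% in REH, the narrowest range of the 4 pairs.

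Per unit of length, the authors' deposited Cuffdiff table gives FPKM per group, with no value per line. In the MLL-rearranged group LRP5 was highest at 10.8 FPKM, followed by PRICKLE2 (7.29), LRP6 (6.79), PRICKLE1 (5.93), FZD3 (2.31), FZD6 (1.82), RYK (1.38), VANGL2 (0.558), VANGL1 (0.450) and WNT10A (0.0200). In the control group of the same deposited table the order was led by RYK at 12.6 FPKM, then LRP5 (11.4), LRP6 (6.84), FZD6 (6.63), VANGL2 (5.50), PRICKLE1 (2.85), FZD3 (2.80), WNT10A (0.0174), PRICKLE2 (0.00403) and VANGL1 (0.00264). RYK held the first place in the control group and the seventh in the other. These group values hide the spread between lines: the 6.63 FPKM of FZD6 covers a line with 2272 counts and one with 59. With no spread given, neighbours in these orders cannot be said to differ.

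**Figure D3:**
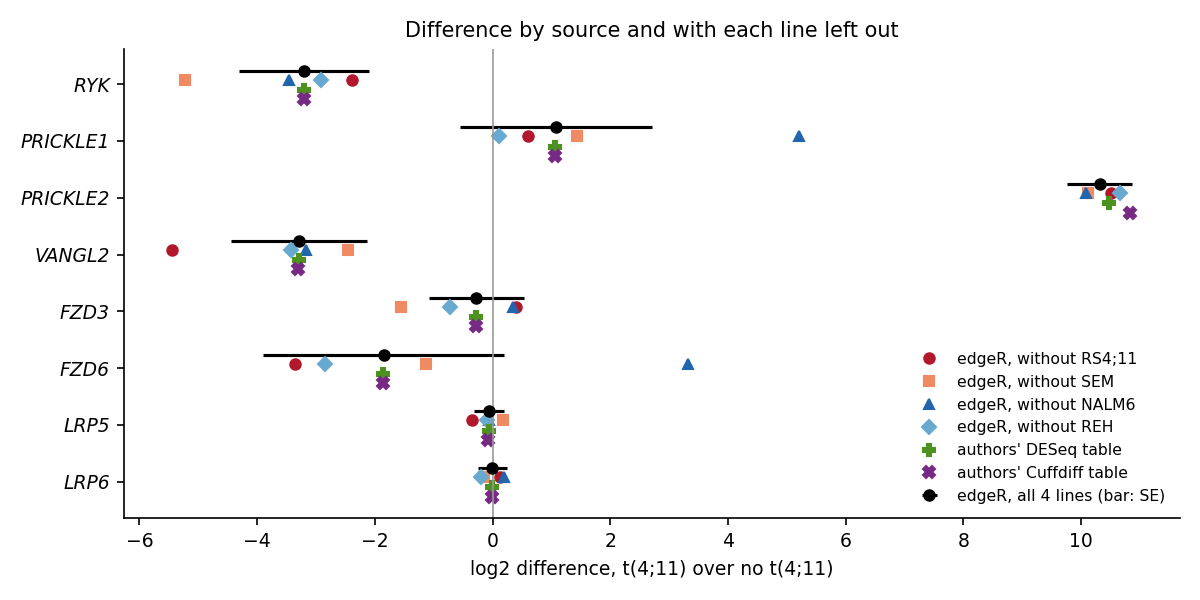
The log2 difference, MLL-rearranged over control, for the 8 genes that passed the filter on low counts, from edgeR with all 4 lines (bar: standard error), from edgeR with each line left out, and from the authors' deposited DESeq and Cuffdiff tables. The sources nearly coincide for each gene, PRICKLE2 being the widest (10.31, 10.48 and 10.82), while leaving out NALM6 moves FZD6 to 3.32 and PRICKLE1 to 5.20.

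The deposited tables agreed on the size of the differences and not on the calls. At an adjusted p under 0.05, the authors' deposited DESeq table held calls for 3 of the 10 genes, PRICKLE2 higher (log2 difference 10.48) and RYK (-3.20) and VANGL2 (-3.30) lower, where 1.56% of 18416 genes were called in either direction, 0.934% higher and 0.630% lower. Of the 9 genes with a test in the authors' deposited Cuffdiff table, 0 were called, where 2.34% of 14203 genes were. For PRICKLE2 that table gave a log2 difference of 10.82 with q = 0.672, for RYK -3.20 with q = 0.238 and for VANGL2 -3.30 with q = 0.265. FZD6 had q = 0.502 and VANGL1 q = 0.833. These are the same libraries as those used to choose the genes, so the counts are given beside their background and nothing is read from them. With edgeR's quasi-likelihood test, 0 of 13844 genes (0%) had an adjusted p under 0.05 and 1668 (12.0%) an unadjusted p under 0.05. On the same counts DESeq2 called 1603 genes (11.6%) and edgeR's exact test 441 (3.19%).

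The 2 MLL-rearranged lines lay above both controls for PRICKLE2 and VANGL1 and below both for RYK and VANGL2, 4 of the 10 genes. Among the 8 that passed the filter these were 1 higher and 2 lower. Over all 13844 genes tested, 19.0% were higher and 28.3% lower in this sense, 47.3% together. These shares are from CPM by column sum, and column sums gave a median log2 difference of -0.12 over all genes, against -0.02 with TMM. Whether the larger share of lower genes depends on the scaling was not tested. The remaining 6 genes, PRICKLE1, FZD3, FZD6, LRP5, LRP6 and WNT10A, overlapped between the groups. Of the 4 that did not, VANGL1 was separated through library size alone, with 4 counts in SEM and 4 in REH and overlapping intervals. The median log2 difference of the 8 genes was -0.17, beside -0.02 over all genes tested, and their median size regardless of sign was 1.47, beside 0.46. Since the genes were selected on their counts in these lines, nothing is read from these medians.

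Within a group, each line is 1 library and no test is possible. Between RS4;11 and SEM 4 of the 10 genes differed by more than 4-fold (RYK, VANGL1, VANGL2 and FZD6), 3 of them among the 8 that passed the filter, where 9.95% of all genes tested did (4.46% higher in RS4;11 and 5.49% lower). RYK was higher in SEM, while VANGL1, VANGL2 and FZD6 were higher in RS4;11. FZD3 was just within the limit, 3.97-fold higher in SEM. Between NALM6 and REH 2 of the 10 genes did, FZD6 and PRICKLE1, both higher in NALM6, where 15.4% of all genes tested did (5.21% higher in NALM6 and 10.2% lower). LRP5 and LRP6 stayed within 1.40-fold in both comparisons.

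**Figure D4:**
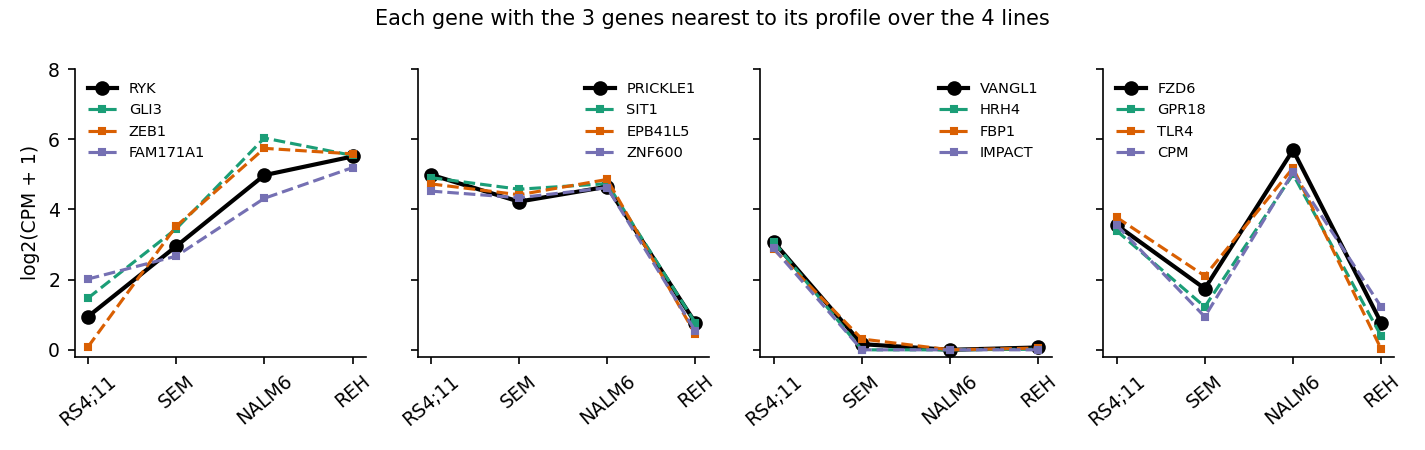
Profiles of RYK, PRICKLE1, VANGL1 and FZD6 over the 4 lines on the log2(CPM + 1) scale (black), each with the 3 genes nearest to it by root mean square difference (dashed). HRH4 lies almost on VANGL1 (0.08), while the nearest gene to RYK is 0.64 away.

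Genes with a like profile were looked for among 12666 genes with a mean of at least 1 CPM, by the root mean square difference of log2(CPM + 1) over the 4 lines. With 4 points and 2 groups many genes come close, so the names are a description. Near to PRICKLE2 lay TMSB15A (0.18), with 40.8 CPM (RS4;11) and 50.1 CPM (SEM), against 0.0223 CPM (NALM6) and 0.0356 CPM (REH), and SGCB (0.19), and 50 genes lay within 1. Nearest to VANGL1 were HRH4 (0.08), FBP1 (0.13) and IMPACT (0.13), each between 6.30 and 7.44 CPM in RS4;11 and at most 0.238 CPM elsewhere, and 85 genes lay within 1. Near to VANGL2 lay FAM213B (0.45) and VWCE (0.51), and 61 genes lay within 1. Nearest to RYK was GLI3, a transcription factor of Hedgehog signalling, at 0.64, then ZEB1 (0.64) and FAM171A1 (0.66), and 43 genes lay within 1. GLI3 had 1.77 CPM (RS4;11) and 9.90 CPM (SEM), against 64.5 CPM (NALM6) and 45.4 CPM (REH).

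The other genes fell into a rare and a common kind of profile. FZD6 had 18 genes within 1, the fewest, led by GPR18 (0.48), TLR4 (0.50) and CPM (0.56), and PRICKLE1 had 67, led by SIT1 (0.19), EPB41L5 (0.25) and ZNF600 (0.27). FZD3, LRP5 and LRP6 had 2070, 3929 and 3786 genes within 1. Their nearest were MCU (0.29), RNF24 (0.29) and DHX57 (0.35) for FZD3, TERF1 (0.11), ALG13 (0.12) and NEXN (0.12) for LRP5, and POLR3A (0.07), DNAJA3 (0.08) and TTI1 (0.08) for LRP6.

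Genes beside the members in hg19 had differences of their own. Within 1 Mb of RYK 7 genes were tested, with a median log2 difference of 0.07, 5 of them positive and 2 negative. Its nearest tested neighbours were RAB6B at 261 kb (-0.11, SE 0.64) and ANAPC13 at 227 kb (0.45, SE 0.33). The 36 tested genes within 1 Mb of VANGL2 had a median of 0.10, with values from -3.69 to 10.10. The 6 near PRICKLE2 had a median of 0.32, and of these PRICKLE2-AS1 had the highest value (7.82). Apart from it, the nearest tested genes on each side of PRICKLE2 were LOC100507062, at 4.22 CPM (RS4;11) and 4.07 CPM (SEM), against 7.38 CPM (NALM6) and 6.74 CPM (REH), and ADAMTS9, at 0 CPM (RS4;11) and 6.07 CPM (SEM), against 0.892 CPM (NALM6) and 0 CPM (REH). The 8 genes near VANGL1 had a median of 0.50. For LRP6 the nearest tested gene on the lower side, ETV6 at 221 kb, had 82.6 CPM (RS4;11) and 111 CPM (SEM), against 125 CPM (NALM6) and 8.02 CPM (REH), while LRP6 itself had 62.1 CPM (REH). Beside FZD6 on chromosome 8, CTHRC1, a secreted collagen triple helix protein at 38.6 kb, had 0.386 CPM (RS4;11) and 0.803 CPM (SEM), against 9.83 CPM (NALM6) and 1.46 CPM (REH). On the other side of FZD6, BAALC at 68.1 kb had 0.848 CPM (RS4;11) and 0.0595 CPM (SEM), against 0.268 CPM (NALM6) and 9.26 CPM (REH). NALM6 was highest for CTHRC1 and FZD6, and REH for BAALC.

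The remaining genes of the pathway were counted in 6 lists with 110 genes in all, of which 73 passed the filter on low counts. No gene of these was called by edgeR's quasi-likelihood test, beside 0 of 13844 over all genes. At an unadjusted p under 0.05 there were 4 higher and 9 lower, beside 6.18% higher and 5.87% lower over all genes tested. The 9 include SMO, a receptor of Hedgehog signalling. Their median log2 difference was -0.24, beside -0.02 over all genes. DESeq2 on the same counts called 4 of the 110 genes higher and 10 lower, beside 809 higher and 794 lower of 13840 over all genes (11.6% in either direction). How many of the 110 had a DESeq2 adjusted p was not counted, so no share is given for them. The authors' deposited DESeq table called 1 higher and 1 lower of 101 with a value, and the authors' deposited Cuffdiff table called 1 higher and 1 lower of 77 tested.

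**Figure D5:**
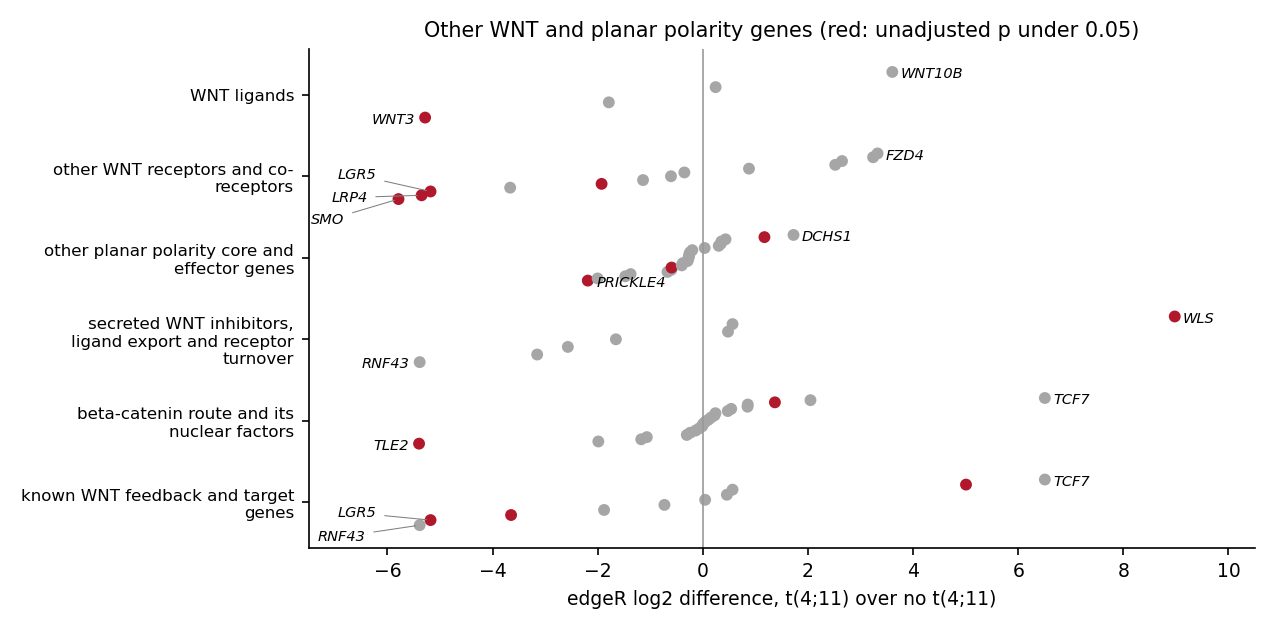
Log2 difference, MLL-rearranged over control, of the other pathway genes that passed the filter on low counts, by list, with genes at an unadjusted p under 0.05 (edgeR) in red and labels on genes called in a deposited table or extreme within their list. WLS lies highest at 8.98 and SMO, a receptor of Hedgehog signalling, lowest at -5.79, and no gene passed the adjusted threshold.

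Among ligands, 14 of 18 had any count and 4 passed the filter. WNT10B had 0.366 CPM (RS4;11) and 3.45 CPM (SEM), against 0.111 CPM (NALM6) and 0.214 CPM (REH), a log2 difference of 3.61 (SE 1.41, edgeR adjusted p = 0.444). WNT3 had 7 and 0 counts in RS4;11 and SEM, against 126 and 283 in NALM6 and REH (edgeR adjusted p = 0.400). Of ligand export, inhibition and receptor turnover genes 7 of 22 were tested, and 1 was higher and 0 were lower with an unadjusted p under 0.05. WLS, the carrier that brings WNT proteins to the cell surface, had 251 and 431 counts in RS4;11 and SEM (4.84 and 12.8 CPM), against 1 and 1 in NALM6 and REH. The authors' deposited DESeq table called WLS higher (adjusted p = 0.00208) and the authors' deposited Cuffdiff table did not (q = 0.712), and its edgeR adjusted p was 0.292. RNF43, a ubiquitin ligase that removes Frizzled receptors from the cell surface, was high in REH alone, at 1.12 CPM (RS4;11) and 0.297 CPM (SEM), against 0.245 CPM (NALM6) and 64.04 CPM (REH). Its relative ZNRF3 had 19.0 CPM (RS4;11) and 19.9 CPM (SEM), against 6.38 CPM (NALM6) and 21.8 CPM (REH).

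Of the other receptors and co-receptors 13 of 16 were tested, with a median log2 difference of -0.61 and, at an unadjusted p under 0.05, 0 higher and 4 lower. The list includes SMO, which belongs to Hedgehog signalling, and SMO is among the 4 lower. LRP4, a relative of LRP5 and LRP6 that serves as the agrin receptor of muscle, had 0.116 CPM (RS4;11) and 0.387 CPM (SEM), against 12.4 CPM (NALM6) and 9.40 CPM (REH), a log2 difference of -5.35 (SE 0.93, edgeR adjusted p = 0.310). It was called lower in the authors' deposited DESeq table (adjusted p = 0.00234). LGR5, a receptor for R-spondins that marks intestinal stem cells, had 4.76 CPM (RS4;11) and 3.81 CPM (SEM), against 318 CPM (NALM6) and 17.1 CPM (REH), and was called lower in the authors' deposited Cuffdiff table (q = 0.00748) but not in their DESeq table. PTK7, another catalytically inactive kinase-like receptor of planar polarity, had 13.0 CPM (RS4;11) and 67.6 CPM (SEM), against 96.8 CPM (NALM6) and 92.0 CPM (REH). SMO, the Frizzled-class receptor of Hedgehog signalling, had 0.733 CPM (RS4;11) and 0.208 CPM (SEM), against 3.21 CPM (NALM6) and 53.5 CPM (REH). FZD4 had 2 counts in RS4;11 and 200 in SEM, against 0 in NALM6 and 52 in REH, so 1 line of each group held nearly all of them.

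Of the other planar polarity genes 22 of 24 were tested, of which 1 was higher and 2 were lower with an unadjusted p under 0.05. The effectors RHOA and CDC42, small GTPases of the cytoskeleton, were the most abundant by count. RHOA had 685 CPM (RS4;11) and 974 CPM (SEM), against 494 CPM (NALM6) and 296 CPM (REH), a log2 difference of 1.17 (SE 0.36, edgeR adjusted p = 0.390). PRICKLE4 had 4.70 CPM (RS4;11) and 2.50 CPM (SEM), against 10.9 CPM (NALM6) and 24.4 CPM (REH), a log2 difference of -2.19 (SE 0.70, edgeR adjusted p = 0.400). DCHS1, a large cadherin, had 2.20 CPM (RS4;11) and 4.34 CPM (SEM), against 0.825 CPM (NALM6) and 1.28 CPM (REH). INTU, a planar polarity effector of ciliated cells, had 0 counts in RS4;11 and 102 in SEM, against 0 and 0 in NALM6 and REH, and the authors' deposited Cuffdiff table called it higher on that line (q = 0.0163).

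Of the beta-catenin route 22 of 23 genes were tested, with a median log2 difference of 0.07 and, with an unadjusted p under 0.05, 1 gene higher and 1 lower. LEF1 was abundant in every line, at 722 CPM (RS4;11) and 400.3 CPM (SEM), against 456 CPM (NALM6) and 715 CPM (REH). CTNNB1, which encodes beta-catenin, had 247 CPM (RS4;11) and 355 CPM (SEM), against 245 CPM (NALM6) and 113 CPM (REH). TCF7 was high in SEM alone, at 0.463 CPM (RS4;11) and 119 CPM (SEM), against 1.25 CPM (NALM6) and 0.166 CPM (REH). TLE2, a co-repressor of the Groucho family, had 0.0771 CPM (RS4;11) and 0.327 CPM (SEM), against 15.7 CPM (NALM6) and 2.54 CPM (REH). Of 14 known feedback and target genes 10 were tested, of which 1 was higher and 2 were lower with an unadjusted p under 0.05, and 5 of the 14 (LEF1, TCF7, LGR5, RNF43 and ZNRF3) are among the genes given above. MYC had 462 CPM (RS4;11) and 438 CPM (SEM), against 1212 CPM (NALM6) and 395 CPM (REH).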

How the data were processed

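RNA-seq of 4 lines was read from 2 deposited tables. Per the submitters' processing notes, the build was hg19 and the tools were DESeq, Cuffdiff, HTSeq, TopHat, TopHat2 2.0.4 and CASAVA 1.8.2. Their settings and the annotation were not given in the sources used here. In the first table, per the file headers, each gene has HTSeq counts for every line, DESeq normalized counts (a signal: the count divided by a size factor per line), group means, a fold change as the ratio of control to t(4;11), p-values and adjusted p-values. The second, per the file headers, holds Cuffdiff values per group, taken as FPKM (the header names no unit), p-values and q-values. The signs of both were turned so that positive means higher with t(4;11).

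Counts were scaled to CPM by column sum. Genes were tested with edgeR 4.0.16 in R 4.3.3 (TMM, filterByExpr, glmQLFit and glmQLFTest, two-sided, Benjamini-Hochberg adjustment over 13844 genes at 0.05, 2 residual degrees of freedom). The code was run on simulated data with a smaller spread within a group than these lines had (common biological coefficient of variation 0.70). That run therefore does not show the power or error rate here. A standard error is the size of the log2 difference divided by the square root of F. Replicate numbers follow listing order and pair no lines, and no source says that a line was cultured more than once, so p-values measure only the spread between these 4 libraries. DESeq2 1.42.0, edgeR's exact test, RLE factors, column sums, no filter and leaving out each line were alternatives. A line at or under 3 counts was set to that floor for folds within a group. Loci are Cuffdiff's in hg19, with the start counted from 1. Overlapping genes shared a single span there (PRICKLE2 with PRICKLE2-AS1, FZD3 with MIR4288), so a locus can be longer than its gene. Distances to neighbours were taken between these spans. The table's symbols include 28 turned into dates, which were left out of lookups by symbol. The submitters' symbols were matched to RefSeq (GRCh38.p14) for promoters. The members and lists were chosen with earlier results of these data known. All members were named. From each list the named genes were those called by edgeR or in either deposited table, the 2 most abundant and the largest difference each way. For each member the 3 genes with the nearest profile were named, except 2 genes that are not reported here. Figures used matplotlib 3.10.9.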

Additional observations from a re-analysis of the deposited data

How the results depend on the processing

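The number of genes called was 0 with edgeR's quasi-likelihood test and also with RLE factors, with column sums and without each line in turn. It was 5 with no filter on low counts, 1603 with DESeq2 and 441 with edgeR's exact test. Of the other WNT and planar polarity genes 0 were called by the quasi-likelihood test, 14 by DESeq2 and 3 by the exact test. The number of members with a positive difference was 2 of 8, and between 2 and 5 with a line left out: 4 without RS4;11 and 5 without NALM6. A member changed sign in 6 cases: FZD3 and LRP6 (without RS4;11 and without NALM6), FZD6 (without NALM6) and LRP5 (without SEM). The differences of RYK, VANGL2, PRICKLE1 and PRICKLE2 kept their sign under every alternative run and in the deposited tables, which come from the same libraries. For RYK, VANGL2 and PRICKLE2 the groups did not overlap, so leaving out a line could not change the sign. For PRICKLE1 the groups overlapped, and its difference ran from 0.11 to 5.20 with a line left out. Column sums moved the median of all genes to -0.12, against -0.02 with TMM, which is larger in size than the differences of LRP5 and LRP6. The count of members whose groups did not overlap was 4 of 10 under all 4 scalings, VANGL1 among them with 4 counts in SEM and 4 in REH. By column sum, 47.3% of the 13844 genes tested did not overlap either. TMM scaling, chosen after seeing the data, left the counts past 4-fold at 4 of 10 (RS4;11 over SEM) and 2 of 10 (NALM6 over REH). Over all genes tested the shares by column sum were 9.95% and 15.4%. Leaving out a line leaves its group with 1 line, which is assumed to vary like the other group. No paired analysis was possible because replicate numbers follow listing order and nothing in the labels pairs the lines. VANGL1 in SEM, NALM6 and REH, PRICKLE2 in the controls and WNT10A in all lines rest on 5 counts or fewer.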
